A study of Mus musculus with 9 samples.

Results

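Serpins are a family of protease inhibitors, and the genes described here are those whose symbol starts with Serpin among the transcript clusters of a mouse array. A transcript cluster is a set of probes summarised to 1 value, and a gene was taken up when a cluster carried its symbol alone. This rule gave 60 of the 30142 genes measured: 23 of clade a, 28 of clade b, 2 each of clades f and i, and 1 each of clades c, d, e, g and h. Of these 60, 5 are annotated as pseudogenes. RefSeq lists 69 mouse genes of this name, and the other 9 were not analysed here.

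The arrays read total RNA of whole neck skin from male C57BL/6 mice aged 6 to 8 weeks, with 3 arrays of oxazolone-challenged skin, 3 of urushiol-challenged skin and 3 of healthy control skin. The oxazolone mice were sensitised on the abdomen with 2.0% oxazolone, a hapten used to provoke contact allergy, and 5 days later were first painted on the nape with 0.5% of it in 40 µl of acetone. The urushiol mice had the same schedule with urushiol, the oil of poison ivy that causes allergic contact dermatitis. Each received 5 challenges, the last on day 8, and neck skin was taken 4 hours after it. For the controls no shaving and no acetone painting is described in the labels, so in each difference against control the allergen cannot be told apart from shaving and solvent. The labels call the replicates biological, and both challenge comparisons use the same 3 control arrays.

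A serpin presents an exposed loop as bait to a protease, is cleaved, and then changes shape, trapping the protease in a covalent complex that destroys both. Clade a serpins are mostly secreted and include the plasma inhibitors made by liver. Clade b serpins mostly stay inside the cell, and in stratified epithelium several of them are made by keratinocytes, where they meet kallikreins and lysosomal cathepsins. Some members, such as maspin and the collagen chaperone Serpinh1, have the serpin fold but do not act as protease inhibitors.

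Promoter windows of 6 members are shown because these genes form 3 pairs that recur below. Serpinb3a and Serpinb3c are paralogs that were both higher in challenged skin. Serpinb11 and Serpinb7 are neighbours on chromosome 1 that moved in opposite directions. Serpina3b and Serpina3n, members of 1 cluster on chromosome 12, also moved in opposite directions. Each printed sequence is the RefSeq window of GRCm38.p6 from 250 bases before to 50 bases after the annotated start, written 5′ to 3′ on the gene's own strand. Capitals mark matches, on either strand, to 4 motifs: the TATA box (TATAAA), the AP-1 motif (TGANTCA), the STAT motif (TTCNNNGAA) and the NF-kB motif (3 G, any 2 bases, 2 T, any base, 2 C).
Serpinb3a, chr1:107052254-107052553, minus strand: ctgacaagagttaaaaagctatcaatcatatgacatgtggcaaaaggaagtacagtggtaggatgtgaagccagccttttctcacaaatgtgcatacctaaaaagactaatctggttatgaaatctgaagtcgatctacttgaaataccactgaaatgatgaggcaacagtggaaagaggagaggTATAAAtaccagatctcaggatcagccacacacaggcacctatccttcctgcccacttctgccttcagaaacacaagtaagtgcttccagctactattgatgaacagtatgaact
Serpinb3c, chr1:107278322-107278621, minus strand: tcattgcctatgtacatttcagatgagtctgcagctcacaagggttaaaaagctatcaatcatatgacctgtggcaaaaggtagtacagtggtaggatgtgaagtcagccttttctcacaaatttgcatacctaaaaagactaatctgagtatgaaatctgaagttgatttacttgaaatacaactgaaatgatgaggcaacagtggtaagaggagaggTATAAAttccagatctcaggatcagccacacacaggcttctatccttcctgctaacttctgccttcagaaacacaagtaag
Serpinb11, chr1:107362064-107362363, plus strand: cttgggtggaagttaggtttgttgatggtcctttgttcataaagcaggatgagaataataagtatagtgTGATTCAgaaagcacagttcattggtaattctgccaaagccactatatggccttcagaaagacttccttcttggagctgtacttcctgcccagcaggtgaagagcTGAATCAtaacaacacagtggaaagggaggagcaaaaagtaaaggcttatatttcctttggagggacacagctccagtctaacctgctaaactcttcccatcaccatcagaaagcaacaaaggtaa
Serpinb7, chr1:107422439-107422738, plus strand: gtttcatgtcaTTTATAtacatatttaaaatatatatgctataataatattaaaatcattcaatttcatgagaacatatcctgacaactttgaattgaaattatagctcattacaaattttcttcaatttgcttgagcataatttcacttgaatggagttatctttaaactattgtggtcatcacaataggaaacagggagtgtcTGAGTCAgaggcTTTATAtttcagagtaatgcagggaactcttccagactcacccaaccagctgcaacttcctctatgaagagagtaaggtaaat
Serpina3b, chr12:104127746-104128045, plus strand: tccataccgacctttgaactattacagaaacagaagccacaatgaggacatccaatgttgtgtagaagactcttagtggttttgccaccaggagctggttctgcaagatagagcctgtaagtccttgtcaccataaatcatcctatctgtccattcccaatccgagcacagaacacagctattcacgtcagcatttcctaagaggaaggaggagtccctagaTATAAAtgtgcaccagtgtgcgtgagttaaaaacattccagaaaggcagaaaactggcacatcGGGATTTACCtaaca
Serpina3n, chr12:104406458-104406757, plus strand: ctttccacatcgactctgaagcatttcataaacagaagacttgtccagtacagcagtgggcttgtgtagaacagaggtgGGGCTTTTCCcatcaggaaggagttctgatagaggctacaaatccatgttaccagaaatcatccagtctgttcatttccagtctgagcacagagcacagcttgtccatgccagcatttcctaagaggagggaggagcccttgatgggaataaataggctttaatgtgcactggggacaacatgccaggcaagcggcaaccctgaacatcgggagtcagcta

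The windows of Serpinb3a and Serpinb3c were identical at 249 of 334 aligned columns (74.6%), and each held 1 TATA match. Those of Serpina3b and Serpina3n were identical at 214 of 312 columns (68.6%), and each held 1 NF-kB match, at different places. Serpina3b also held 1 TATA match, 28 bases before the start, and Serpina3n held none. The windows of Serpinb11 and Serpinb7 were identical at 164 of 320 columns (51.2%), within the 45.8% to 52.8% of the other pairs among these 6. Serpinb11 held 2 AP-1 matches and Serpinb7 held 1 AP-1 and 2 TATA matches. No 2 matches overlapped in the 6 windows. Of the 49 members with at least 1 window, 13 held a TATA match, 10 an AP-1 match, 7 a STAT match and 4 an NF-kB match in any of their windows. Over all 32851 RefSeq windows of 300 bases the shares with a match were 13.62% for TATA, 7.81% for AP-1, 8.3% for STAT and 4.79% for NF-kB. Because some members have more than 1 window, the member counts and these shares are not on the same footing. A match shows only that the letters are present.

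Values are log2 expression as deposited, so a difference of 1 is a doubling on that scale. They run from 2.2 to 19.93, whereas a 16-bit scanner stops at 16; the processing step behind this is unknown here, and a log2 difference need not be the log2 ratio of the RNA amounts. Among serpin values 12 exceeded 16, all of them Serpinb2 or Serpinb5, up to 17.23. A difference was called when limma's Benjamini-Hochberg adjusted p over all 30142 genes was below 0.05, and its standard error (SE) is given after ±. With 3 arrays against 3, an exact permutation test of a single gene cannot go below p = 0.1, so calls rest on the fit across all genes. The array median of all clusters lay between 5.53 and 5.64. There were 33 members above it on all 9 arrays, 36 on at least 3, and 23 on none. In whole skin, fewer cells of a type and less RNA per cell cannot be told apart.

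Many more clade b serpins were higher than lower in challenged skin, while clade a was split. In oxazolone-challenged skin 14 of the 60 serpins were higher and 5 lower than in control skin, 31.7% of the members called, against 9.63% of all genes higher, 6.92% lower and 16.6% either way. In urushiol-challenged skin 10 were higher and 5 lower, 25% of the members, against 9.96% of all genes higher, 6.43% lower and 16.4% either way. The arrays of oxazolone and control skin did not overlap for 23 members that were higher and 7 that were lower, against 21.3% and 11.5% of all genes (32.8% either way). For urushiol and control skin these counts were 17 and 9, against 21.1% and 11.8% of all genes (32.9% either way). The median log2 difference of the members was 0.09 for oxazolone and 0.03 for urushiol, near the 0.06 and 0.04 of all genes.

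By clade, 11 of the 28 clade b genes were higher and 1 lower under oxazolone, with a median log2 difference of 0.42. Under urushiol 8 of them were higher and 1 lower, with a median of 0.24. Of the 23 clade a genes, 3 were higher and 3 lower under oxazolone, and 2 higher and 3 lower under urushiol, with medians of 0.04 and -0.01. In clade f, Serpinf1 was lower under each allergen. No gene of clades c, d, e, g, h and i was called in limma's test, although Serping1 and Serpinc1 had unadjusted p below 0.05 under each allergen, as did 34.1% of all genes for oxazolone and 32.2% for urushiol. The plot of differences against control shows these values for the genes named here.

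**Figure D1:**
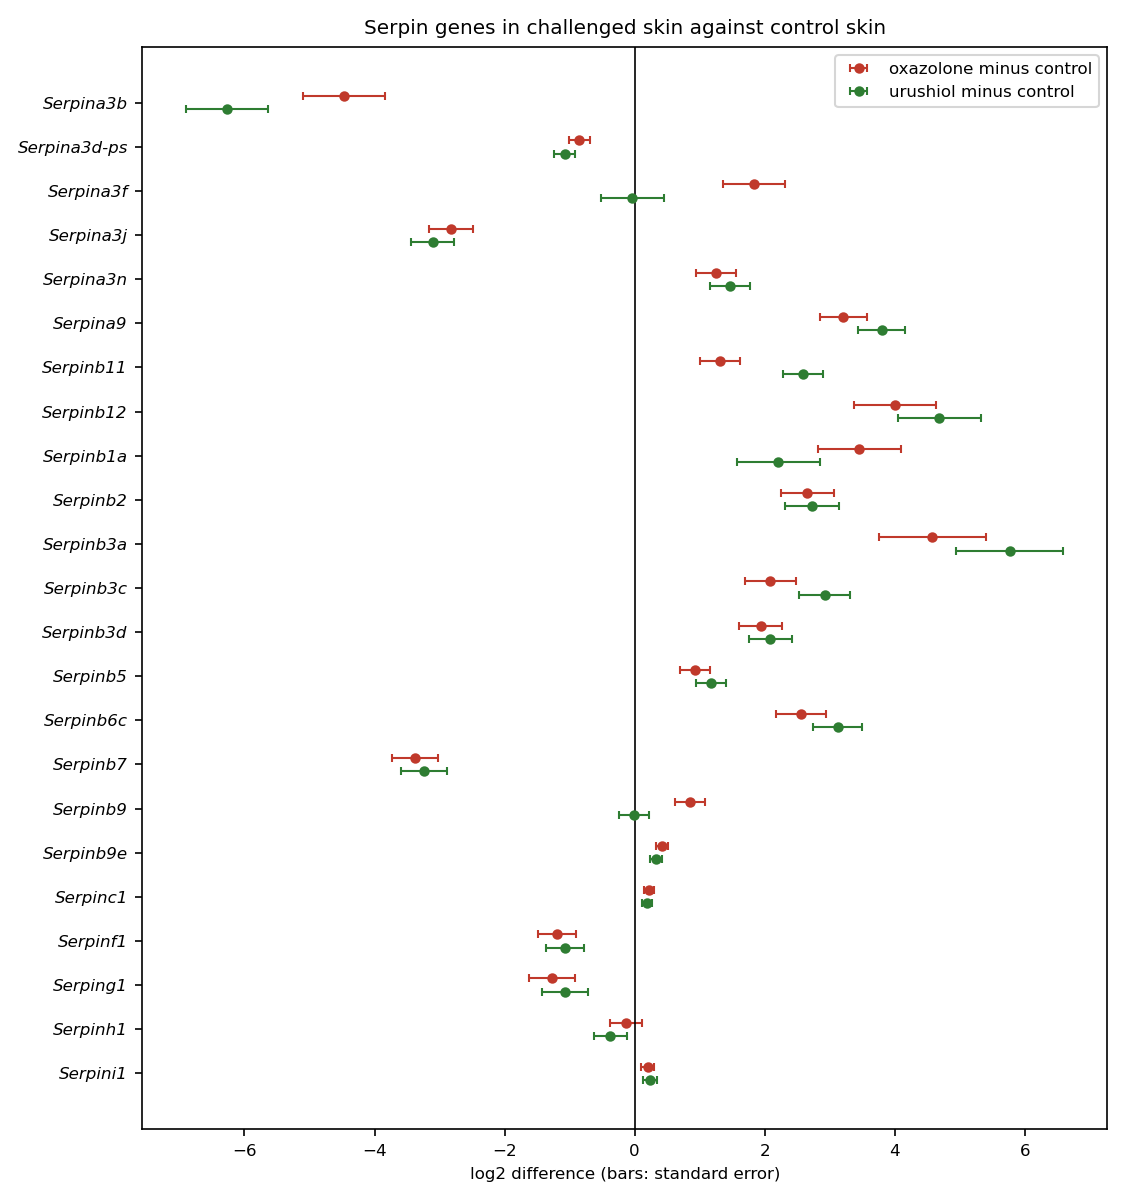
Log2 difference from control skin (x axis, bars: standard error) of 23 serpin genes (y axis) in oxazolone-challenged skin (red) and urushiol-challenged skin (green), 3 arrays a group. Serpina3b lies lowest at -4.47 and -6.27 and Serpinb3a highest at 4.58 and 5.77, and both colours share the same 3 control arrays.

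The clade b genes of chromosome 1 lie in a row, in the RefSeq order Serpinb5, Serpinb12, Serpinb13, Serpinb3a, Serpinb3d, Serpinb3b, Serpinb3c, Serpinb11, Serpinb7, Serpinb2, Serpinb10 and Serpinb8. Of these 12 genes 11 were members, and under oxazolone 7 were higher and 1 lower than in control skin, with a median log2 difference of 1.31. Under urushiol 7 were higher and 1 lower, with a median of 2.09. Of all genes 9.63% were higher and 6.92% lower for oxazolone, and 9.96% higher and 6.43% lower for urushiol, with medians of 0.06 and 0.04. The Serpinb3 genes are mouse counterparts of the human squamous cell carcinoma antigens, which inhibit papain-like cathepsins and some serine proteases.

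**Figure D2:**
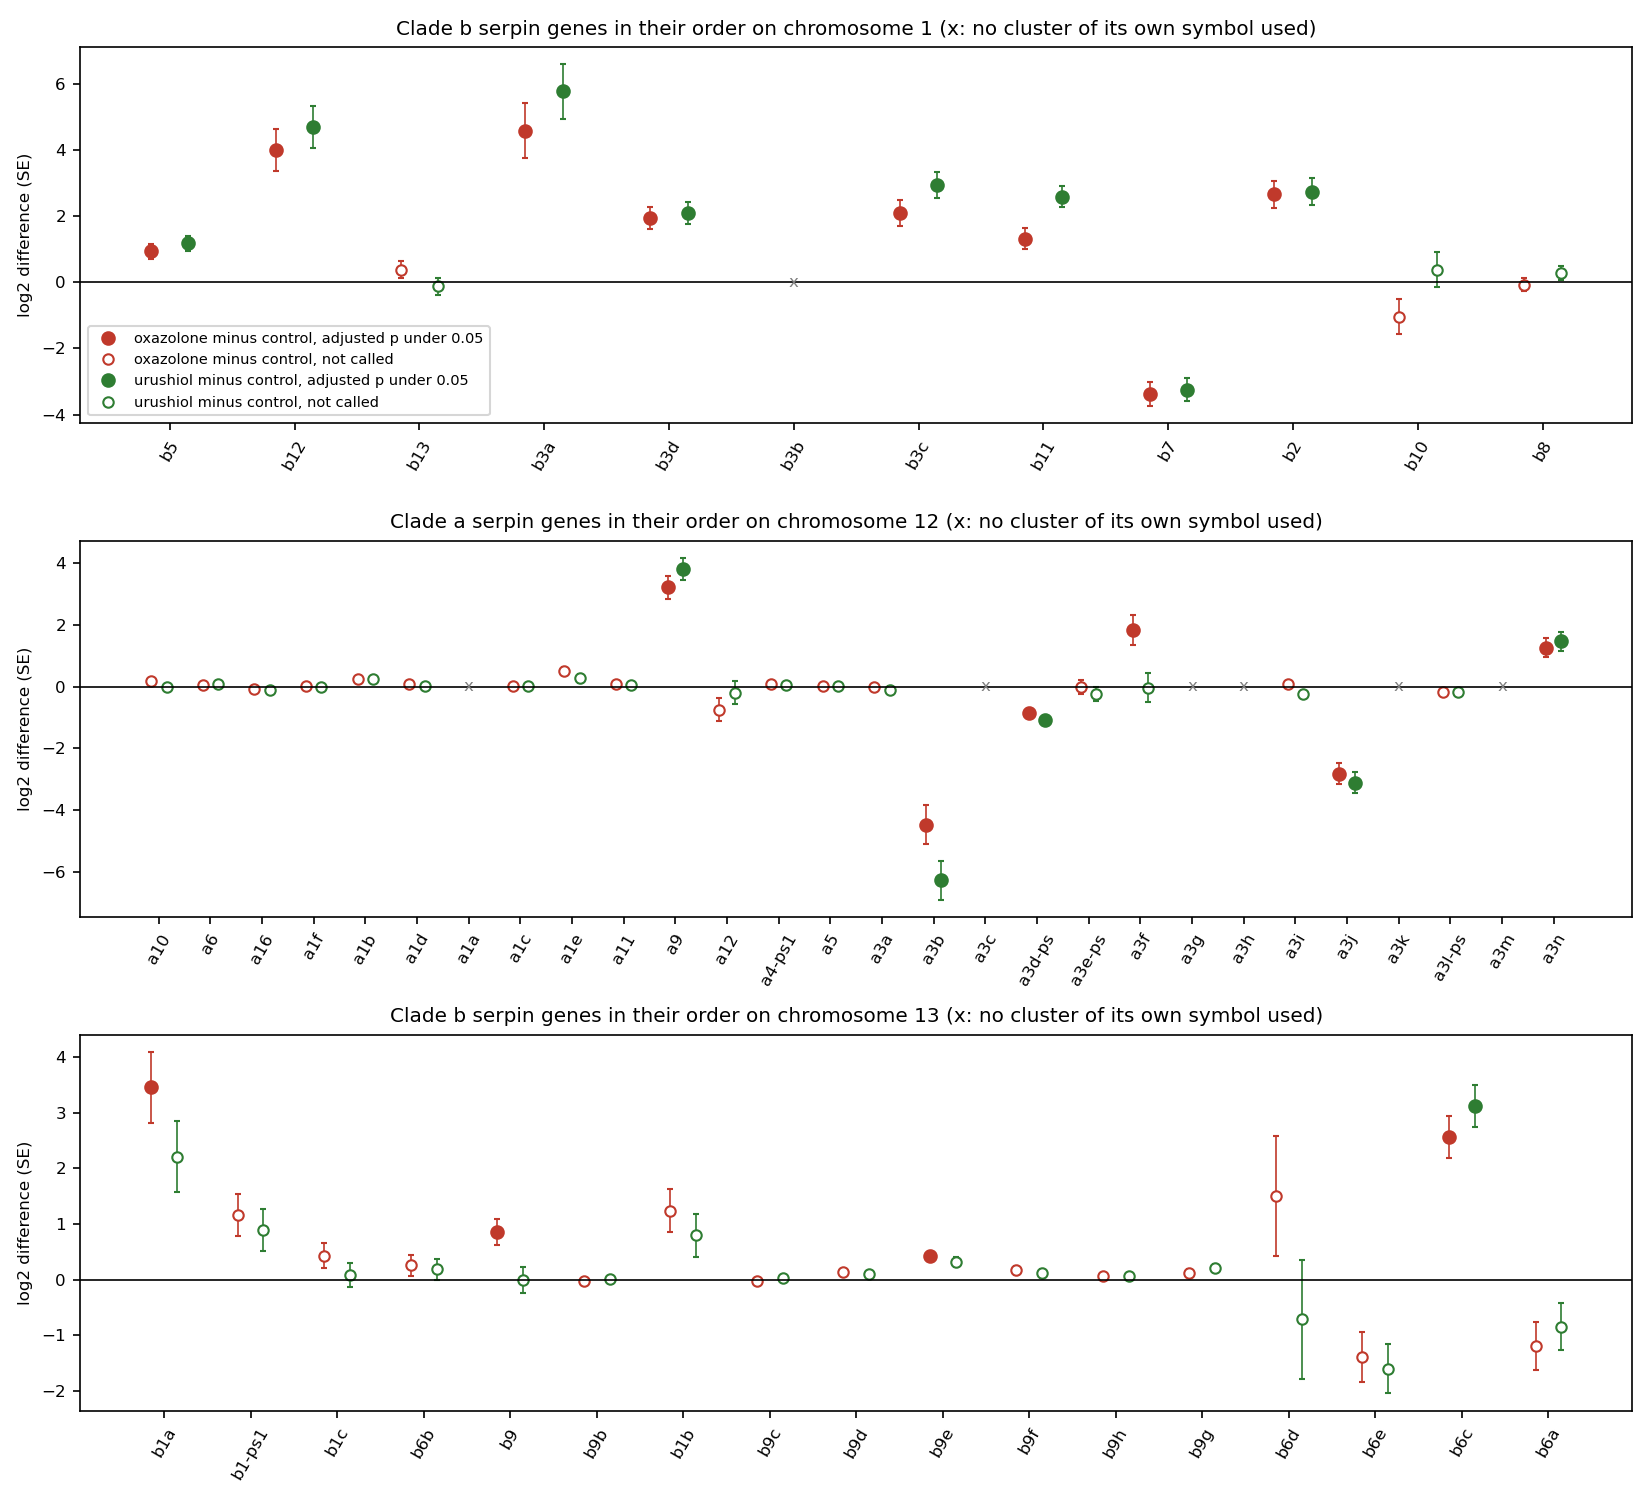
Log2 difference from control skin (y axis, bars: standard error, 3 arrays a group) of serpin genes in their RefSeq order (x axis, not to scale, symbols without the word Serpin) for clade b on chromosome 1, clade a on chromosome 12 and clade b on chromosome 13. Filled points have an adjusted p below 0.05, crosses mark genes with no cluster used, and on chromosome 1 Serpinb7 is the filled point below 0, at -3.38 for oxazolone and -3.24 for urushiol.

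Serpinb3a read 11.45, 10.99 and 12.64 on the oxazolone arrays, 14.48, 11.20 and 12.97 on the urushiol arrays, and 6.88, 6.82 and 7.65 on the control arrays. Every challenged array lay above every control array, and urushiol array 1 was the highest. The log2 difference from control was 4.58 ± 0.82 for oxazolone (adjusted p = 0.0136) and 5.77 ± 0.82 for urushiol (adjusted p = 0.00602). Its paralog Serpinb3c read 8.83, 8.24 and 9.20 on the oxazolone arrays, 10.31, 8.87 and 9.62 on the urushiol arrays, and 6.70, 6.40 and 6.92 on the control arrays. The groups of challenged arrays again did not overlap with control, at 2.08 ± 0.39 for oxazolone (adjusted p = 0.0158) and 2.93 ± 0.39 for urushiol (adjusted p = 0.00485). Serpinb3d read 7.72, 7.43 and 8.27 on the oxazolone arrays, 8.64, 7.43 and 7.79 on the urushiol arrays, and 5.70, 5.99 and 5.91 on the control arrays. It was higher by 1.94 ± 0.33 under oxazolone (adjusted p = 0.0118) and by 2.09 ± 0.33 under urushiol (adjusted p = 0.00878). These genes are paralogs, and whether the probes of one also bind RNA of another was not tested, so their separate values are uncertain. The oxazolone call of Serpinb3a was lost without control array 1 or 2 (adjusted p up to 0.0529), and that of Serpinb3c without oxazolone array 1 or 3 or control array 1 or 2 (up to 0.0601).

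Serpinb12 and Serpinb11 encode epithelial serpins, and the human form of the one and the mouse form of the other inhibit trypsin-like proteases. Serpinb12 read 14.73, 12.76 and 13.47 on the oxazolone arrays, 14.75, 14.87 and 13.39 on the urushiol arrays, and 9.22, 9.27 and 10.46 on the control arrays. All challenged arrays lay above the controls, of which control array 3 was the highest. The difference from control was 4.00 ± 0.63 for oxazolone (adjusted p = 0.00914) and 4.69 ± 0.63 for urushiol (adjusted p = 0.00505). Serpinb11 read 10.89, 10.11 and 10.62 on the oxazolone arrays, 12.31, 11.82 and 11.31 on the urushiol arrays, and 9.47, 9.37 and 8.84 on the control arrays. Its 3 groups were separate, with urushiol highest and control lowest. It was higher than control by 1.31 ± 0.31 under oxazolone (adjusted p = 0.0325) and by 2.59 ± 0.31 under urushiol (adjusted p = 0.00353). The oxazolone call of Serpinb11 held in 3 of the 9 fits that each left out 1 array, and was lost without oxazolone array 1 or 3, urushiol array 2 or any control array (adjusted p up to 0.0971).

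Serpinb2 encodes plasminogen activator inhibitor type 2, an inhibitor of urokinase. It read 16.27, 16.24 and 16.02 on the oxazolone arrays, 17.23, 15.41 and 16.11 on the urushiol arrays, and 13.59, 13.68 and 13.29 on the control arrays. The oxazolone arrays lay close together, the urushiol arrays were spread around them, and all 6 were above control. It was higher by 2.66 ± 0.41 under oxazolone (adjusted p = 0.00835) and by 2.73 ± 0.41 under urushiol (adjusted p = 0.00724). Maspin, encoded by Serpinb5, is an epithelial serpin without known inhibitor activity. It read 16.77, 16.45 and 16.56 on the oxazolone arrays, 17.18, 16.66 and 16.68 on the urushiol arrays, and 15.44, 15.41 and 16.14 on the control arrays. Control array 3 lay nearest to the challenged arrays, and no groups overlapped with control. The difference was 0.93 ± 0.23 for oxazolone (adjusted p = 0.0366) and 1.18 ± 0.23 for urushiol (adjusted p = 0.0176). The oxazolone call of Serpinb5 held in 2 of 9 fits that left out 1 array: it was lost without any oxazolone array, urushiol array 2 or 3, or control array 1 or 2 (adjusted p up to 0.118), and adjusted p was 0.00495 without control array 3. Its urushiol call was lost without urushiol array 1 or control array 1 or 2 (up to 0.0636).

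Serpinb7 went the other way from its neighbours on either side, Serpinb11 and Serpinb2. Loss of this gene in humans causes a palmoplantar skin thickening disorder, Nagashima-type keratosis. It read 10.93, 10.55 and 10.26 on the oxazolone arrays, 11.20, 11.08 and 9.86 on the urushiol arrays, and 13.89, 13.93 and 14.05 on the control arrays. The 3 control arrays lay within 0.2 of each other and far above all challenged arrays. Serpinb7 fell by 3.38 ± 0.35 under oxazolone (adjusted p = 0.00229) and by 3.24 ± 0.35 under urushiol (adjusted p = 0.00251), and both calls held whichever array was left out. The remaining members of this row were not called. Serpinb13, whose human counterpart inhibits cathepsins L and K, differed from control by 0.37 ± 0.26 for oxazolone and -0.13 ± 0.26 for urushiol. Serpinb8, whose human counterpart inhibits furin, differed by -0.07 ± 0.21 for oxazolone and 0.27 ± 0.21 for urushiol. Serpinb10, known from human blood-forming cells, differed by -1.05 ± 0.53 for oxazolone and 0.37 ± 0.53 for urushiol.

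**Figure D3:**
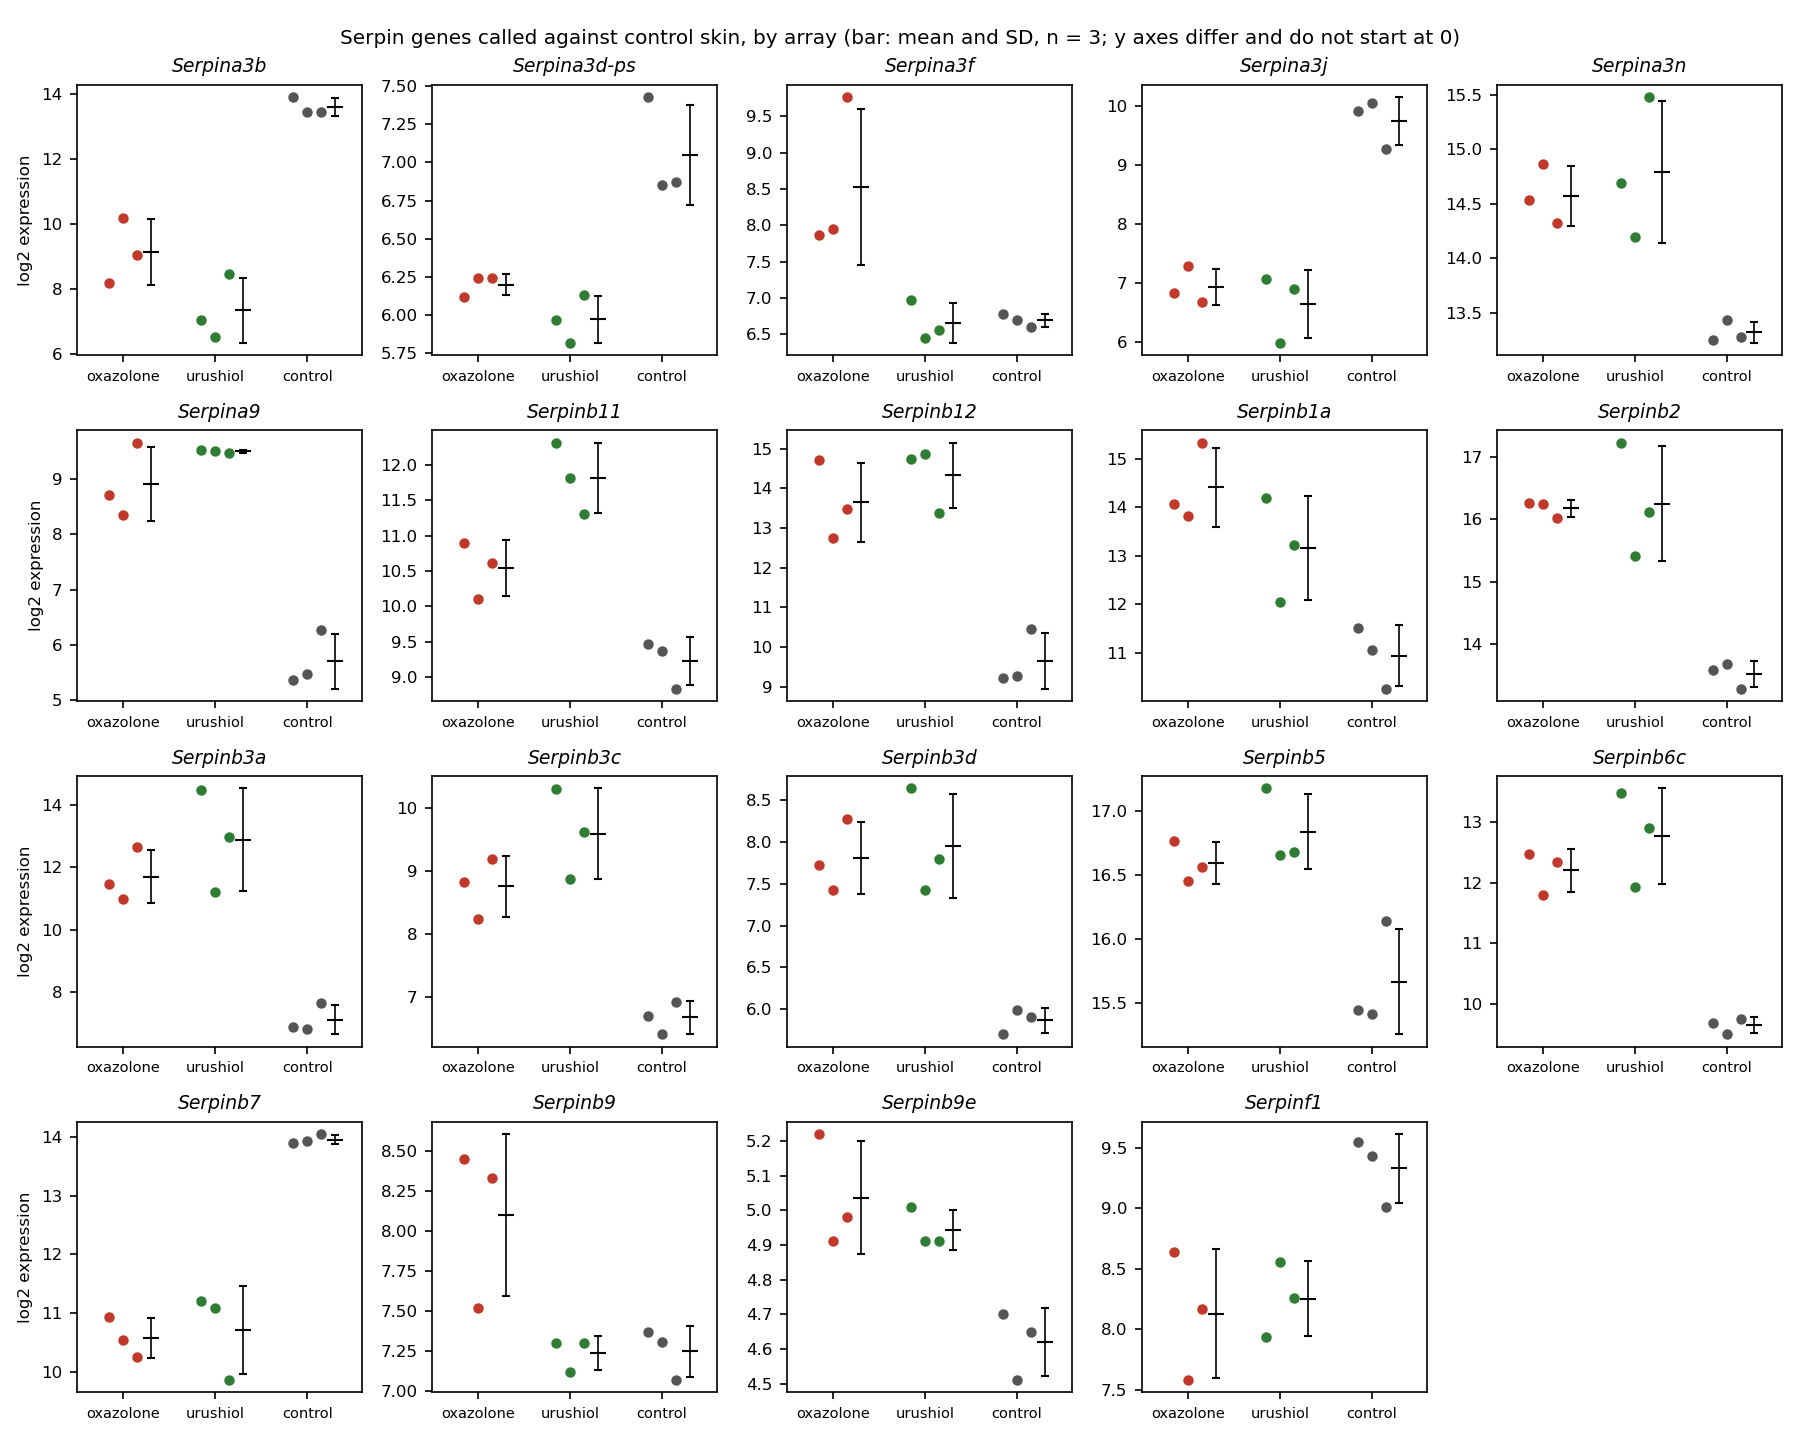
Log2 expression (y axes, which differ and do not start at 0) of 19 serpin genes called against control, by array, for oxazolone, urushiol and control skin (x axis); bars are the mean and SD of 3 arrays. Serpina3b, Serpina3j, Serpinb7 and Serpinf1 lie below control in both challenged groups, and Serpina3f and Serpinb9 lie above control on the oxazolone arrays, while their urushiol arrays overlap control.

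The clade b genes of chromosome 13 form a second row of 17, all of them members, which holds the mouse expansions of Serpinb1, Serpinb6 and Serpinb9. Here 4 were higher and 0 lower under oxazolone, and 1 was higher and 0 lower under urushiol, against 9.63% of all genes higher for oxazolone and 9.96% for urushiol. Serpinb6c, a mouse copy in a group whose human counterpart inhibits cathepsin G, read 12.47, 11.80 and 12.35 on the oxazolone arrays, 13.49, 11.93 and 12.90 on the urushiol arrays, and 9.69, 9.50 and 9.76 on the control arrays. The control arrays lay close together below all challenged arrays. It was higher by 2.56 ± 0.38 under oxazolone (adjusted p = 0.00717) and by 3.12 ± 0.38 under urushiol (adjusted p = 0.00354), and both calls held whichever array was left out.

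Serpinb1a is the mouse counterpart of human SERPINB1, an inhibitor of the neutrophil proteases elastase, cathepsin G and proteinase 3. It read 14.07, 13.82 and 15.33 on the oxazolone arrays, 14.19, 12.06 and 13.23 on the urushiol arrays, and 11.51, 11.07 and 10.27 on the control arrays. Both challenged groups lay above control, with urushiol array 2 nearest to it. The difference was 3.46 ± 0.64 for oxazolone (adjusted p = 0.0149) and 2.21 ± 0.64 for urushiol, which was not called (adjusted p = 0.0569). Without control array 2 the oxazolone call was lost (adjusted p = 0.0509), and without urushiol array 2 the urushiol difference was called (adjusted p = 0.0392). The other copies of this gene showed smaller differences that were not called: for oxazolone 1.24 ± 0.39 in Serpinb1b (adjusted p = 0.0688) and 1.16 ± 0.38 in the pseudogene Serpinb1-ps1 (adjusted p = 0.0763). For urushiol they were 0.80 ± 0.39 in Serpinb1b and 0.89 ± 0.38 in Serpinb1-ps1. Serpinb1c differed least, by 0.43 ± 0.22 for oxazolone (adjusted p = 0.214) and 0.08 ± 0.22 for urushiol (adjusted p = 0.852). Whether probes of 1 copy of Serpinb1, Serpinb6 or Serpinb9 also bind RNA of another was not tested, so the separate values of these copies are uncertain.

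Serpinb9 encodes the inhibitor of granzyme B, which cytotoxic lymphocytes and dendritic cells use to protect themselves. It read 8.45, 7.52 and 8.33 on the oxazolone arrays, 7.30, 7.12 and 7.30 on the urushiol arrays, and 7.37, 7.31 and 7.07 on the control arrays. Oxazolone arrays 1 and 3 stood well above all others, and urushiol and control arrays overlapped. The oxazolone difference of 0.85 ± 0.23 had an adjusted p of 0.0496 and was called in 1 of 9 fits that left out an array, the one without oxazolone array 2 (adjusted p = 0.00404). It was lost without any other array (adjusted p up to 0.134, without oxazolone array 3). The urushiol difference was -0.01 ± 0.23 (adjusted p = 1). Serpinb9e, a copy below the array median on every array, differed by 0.42 ± 0.09 for oxazolone (adjusted p = 0.0246) and 0.32 ± 0.09 for urushiol (adjusted p = 0.0514). Its oxazolone call was lost without oxazolone array 3 or control array 1 or 2 (up to 0.0796), and its urushiol difference was called without oxazolone array 1 (0.0275).

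For Serpinb6e and Serpinb6a, other copies of that group, 1 control array decided the call. Serpinb6e read 6.33, 6.72 and 6.67 on the oxazolone arrays, 6.36, 6.01 and 6.72 on the urushiol arrays, and 8.66, 8.35 and 6.88 on the control arrays. Control array 3 lay with the challenged arrays. The difference of -1.39 ± 0.45 for oxazolone (adjusted p = 0.0753) and -1.60 ± 0.45 for urushiol (adjusted p = 0.0519) was not called, and without control array 3 it was -1.93 (adjusted p = 0.00199) and -2.14 (adjusted p = 0.00133). Serpinb6a had the same pattern, at 9.51, 8.85 and 9.04 on the oxazolone arrays, 9.87, 9.02 and 9.55 on the urushiol arrays, and 10.87, 10.72 and 9.39 on the control arrays. Its difference was -1.19 ± 0.42 for oxazolone (adjusted p = 0.096) and -0.85 ± 0.42 for urushiol (adjusted p = 0.222), and without control array 3 it was -1.66 (adjusted p = 0.0081) and -1.32 (adjusted p = 0.0192). The 16 clade b genes that were not called for oxazolone reached from -1.39 in Serpinb6e to 1.51 in Serpinb6d, and 10 of them lay within 0.5 of control. Of the 19 not called for urushiol 13 did.

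In clade a, 22 of the 28 RefSeq genes of chromosome 12 were members, and Serpina7 on chromosome X was the 23rd. Serpina9, also called centerin and known from human germinal centre B cells, read 8.72, 8.35 and 9.66 on the oxazolone arrays, 9.53, 9.50 and 9.47 on the urushiol arrays, and 5.37, 5.47 and 6.27 on the control arrays. The urushiol arrays lay within 0.1 of each other, and all challenged arrays were above control. It was higher by 3.21 ± 0.36 under oxazolone (adjusted p = 0.00287) and by 3.80 ± 0.36 under urushiol (adjusted p = 0.00153), whichever array was left out. Serpina3n, a mouse counterpart of human antichymotrypsin and an acute-phase protein, read 14.53, 14.86 and 14.32 on the oxazolone arrays, 14.69, 14.19 and 15.48 on the urushiol arrays, and 13.25, 13.43 and 13.28 on the control arrays. No challenged array overlapped with control. It was higher by 1.25 ± 0.31 under oxazolone (adjusted p = 0.0355) and by 1.47 ± 0.31 under urushiol (adjusted p = 0.0219). The oxazolone call held in 2 of 9 fits that left out 1 array and was lost without any oxazolone or control array or urushiol array 1 (adjusted p up to 0.104). The urushiol call was lost without urushiol array 1 or control array 1 or 2 (up to 0.0713).

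Other genes of the same antichymotrypsin-like expansion fell. Serpina3b, with its window printed above beside that of Serpina3n, read 8.17, 10.20 and 9.04 on the oxazolone arrays, 7.03, 6.53 and 8.46 on the urushiol arrays, and 13.92, 13.44 and 13.46 on the control arrays. The control arrays were more than 3 log2 units above every challenged array. Serpina3b fell by 4.47 ± 0.63 under oxazolone (adjusted p = 0.00599) and by 6.27 ± 0.63 under urushiol (adjusted p = 0.00182). Serpina3j read 6.83, 7.28 and 6.68 on the oxazolone arrays, 7.06, 5.98 and 6.89 on the urushiol arrays, and 9.92, 10.05 and 9.28 on the control arrays. Again no challenged array reached a control array, and Serpina3j fell by 2.82 ± 0.34 under oxazolone (adjusted p = 0.00344) and by 3.11 ± 0.34 under urushiol (adjusted p = 0.00245). Both genes kept their calls whichever array was left out. The pseudogene Serpina3d-ps read 6.12, 6.24 and 6.24 on the oxazolone arrays, 5.97, 5.82 and 6.13 on the urushiol arrays, and 7.43, 6.85 and 6.87 on the control arrays. All challenged arrays were lower, by 0.85 ± 0.16 under oxazolone (adjusted p = 0.0165, up to 0.058 without oxazolone array 1 or 3) and by 1.08 ± 0.16 under urushiol (adjusted p = 0.00729).

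Serpina3f was higher in oxazolone-challenged skin, and its urushiol arrays lay at the control level. It read 7.86, 7.95 and 9.77 on the oxazolone arrays, 6.97, 6.44 and 6.56 on the urushiol arrays, and 6.78, 6.69 and 6.60 on the control arrays. Oxazolone array 3 stood furthest out. The difference was 1.84 ± 0.48 for oxazolone (adjusted p = 0.0429) and -0.03 ± 0.48 for urushiol (adjusted p = 0.989). Of 9 fits that left out 1 array, only the one without oxazolone array 3 called it (adjusted p = 0.0119), and adjusted p reached 0.118 without control array 2. The Serpina3 genes are paralogs, and cross-binding of their probes was not tested. The other 17 clade a genes were not called for oxazolone and ranged from -0.75 in Serpina12, the adipose and skin serpin vaspin, to 0.50 in Serpina1e, an alpha-1-antitrypsin copy. For urushiol the 18 that were not called ranged from -0.25 in Serpina3i to 0.27 in Serpina1e. These include the hormone carriers Serpina6 and Serpina7, the protein C inhibitor Serpina5 and Serpina10, an inhibitor of coagulation factor X.

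The remaining clades hold single genes with known roles. Serpinf1 encodes pigment epithelium-derived factor, an antiangiogenic serpin made by fibroblasts that does not inhibit proteases. It read 8.64, 7.58 and 8.17 on the oxazolone arrays, 7.94, 8.56 and 8.26 on the urushiol arrays, and 9.55, 9.43 and 9.01 on the control arrays. All challenged arrays were below control, by 1.20 ± 0.29 for oxazolone (adjusted p = 0.0347) and by 1.08 ± 0.29 for urushiol (adjusted p = 0.0479). The oxazolone call was lost without oxazolone array 2 or 3, urushiol array 3 or control array 1 or 2 (adjusted p up to 0.109). The urushiol call was lost without any urushiol array, oxazolone array 3, or control array 1 or 2 (up to 0.149). Serping1, the C1 inhibitor that restrains complement and plasma kallikrein, read 13.84, 12.95 and 13.88 on the oxazolone arrays, 13.56, 13.42 and 14.26 on the urushiol arrays, and 15.26, 14.81 and 14.40 on the control arrays. All challenged arrays were below control, but the difference was not called, at -1.27 ± 0.35 for oxazolone (adjusted p = 0.0507) and -1.08 ± 0.35 for urushiol (adjusted p = 0.0813). Without control array 3 the oxazolone difference was -1.48 (adjusted p = 0.0327). Of the 7 measured fibroblast markers 5 were lower under oxazolone and 4 under urushiol, against 6.92% and 6.43% of all genes. The mean of the 7 was 13.13 to 14.10 on the oxazolone arrays, 13.44 to 14.32 on the urushiol arrays and 14.77 to 15.05 on the control arrays. Their part in these 2 results was not tested.

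Serpinc1, the liver-made thrombin inhibitor antithrombin, read 5.41, 5.51 and 5.43 on the oxazolone arrays, 5.44, 5.41 and 5.41 on the urushiol arrays, and 5.11, 5.17 and 5.41 on the control arrays. All values lay below the array median, and control array 3 lay with the challenged arrays. Its difference of 0.22 ± 0.08 for oxazolone (adjusted p = 0.0952) and 0.19 ± 0.08 for urushiol (adjusted p = 0.143) was not called. Without control array 3 it was 0.31 (adjusted p = 0.00409) and 0.28 (adjusted p = 0.006). The mean of 8 hepatocyte markers was 4.86 to 4.94 on the oxazolone arrays, 4.84 to 4.90 on the urushiol arrays and 4.80 to 4.86 on the control arrays, and none of the 8 was called in limma's test, with 1 at an unadjusted p below 0.05 for oxazolone and 0 for urushiol. Serpinh1, the chaperone of collagen in the endoplasmic reticulum, read 8.81, 7.86 and 8.28 on the oxazolone arrays, 7.88, 8.40 and 7.95 on the urushiol arrays, and 8.56, 8.27 and 8.52 on the control arrays. Its groups overlapped, with differences of -0.13 ± 0.25 for oxazolone (95% interval -0.72 to 0.45) and -0.37 ± 0.25 for urushiol (-0.96 to 0.21). Serpini1, the neuroserpin that inhibits tissue plasminogen activator, read 5.17, 5.26 and 5.11 on the oxazolone arrays, 5.11, 5.44 and 5.11 on the urushiol arrays, and 4.93, 4.90 and 5.11 on the control arrays. These groups overlapped too, at 0.20 ± 0.10 for oxazolone (adjusted p = 0.226) and 0.24 ± 0.10 for urushiol (adjusted p = 0.166). Serpind1, Serpine3, Serpinf2 and Serpini2 were not called, and each differed from control by less than 0.25 under each allergen.

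The proteases that serpins act on were also followed, as a list of 37 serine proteases of which 34 were measured. Under oxazolone 13 were higher and 0 lower, and under urushiol 12 were higher and 0 lower, with medians of 0.53 and 0.71 against 0.06 and 0.04 over all genes. The shares of all genes were 9.63% higher and 6.92% lower for oxazolone, and 9.96% higher and 6.43% lower for urushiol. Klk6, a trypsin-like epidermal kallikrein, was higher by 6.72 ± 0.55 under oxazolone (adjusted p = 0.00103) and by 7.69 ± 0.55 under urushiol (adjusted p = 0.000675). Another kallikrein, Klk13, was higher by 5.99 ± 0.67 under oxazolone (adjusted p = 0.00286) and by 7.83 ± 0.67 under urushiol (adjusted p = 0.00111). Klk8 was higher by 3.33 ± 0.53 under oxazolone and by 4.36 ± 0.53 under urushiol, and the membrane protease Tmprss11a by 1.97 ± 0.35 and 3.88 ± 0.35 in the same order. Plau, the urokinase that Serpinb2 inhibits, was higher by 1.28 ± 0.20 under oxazolone (adjusted p = 0.00819) and by 1.37 ± 0.20 under urushiol (adjusted p = 0.00609). The neutrophil elastase gene Elane and the cathepsin G gene Ctsg, targets of Serpinb1a, lay below the array median on all 9 arrays and were not called.

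The granzyme genes Gzmb and Gzma were higher in oxazolone-challenged skin, and neither their urushiol difference nor the difference between the allergens was called. Gzmb, which encodes granzyme B, the target of Serpinb9, read 9.04, 7.38 and 11.57 on the oxazolone arrays, 5.63, 5.51 and 5.51 on the urushiol arrays, and 4.48, 4.90 and 4.48 on the control arrays. Oxazolone array 2 was the lowest of its group for Gzmb, as it was for Serpinb9, but oxazolone arrays 1 and 3 were in opposite order for these genes. That array 2 was also lowest in its group for other list means, among them macrophage (10.06, against 10.91 and 10.19) and fibroblast markers (13.13, against 14.10 and 13.82). For hair follicle markers it was highest (13.04, against 10.48 and 11.38). Gzmb was higher than control by 4.71 ± 0.92 under oxazolone (adjusted p = 0.0176), and its urushiol difference was 0.93 ± 0.92 (adjusted p = 0.548). Gzma was higher by 4.07 ± 1.04 under oxazolone (adjusted p = 0.0389), with a urushiol difference of 0.27 ± 1.04 (adjusted p = 0.91). Urushiol minus oxazolone was -3.78 ± 0.92 for Gzmb (adjusted p = 0.403) and -3.81 ± 1.04 for Gzma (adjusted p = 0.492). The mean of 12 T and NK cell markers was 5.91 to 6.83 on the oxazolone arrays, 5.72 to 5.88 on the urushiol arrays and 5.93 to 5.97 on the control arrays, and its part in the Serpinb9 and Serpina3f values was not tested.

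Of 10 papain-family cathepsins, the lysosomal cysteine proteases that Serpinb3 proteins can inhibit, 5 were higher and 2 lower under oxazolone, and 4 higher and 1 lower under urushiol. The shares of all genes beside these counts and those of the next 2 lists were 9.63% higher and 6.92% lower for oxazolone, and 9.96% higher and 6.43% lower for urushiol. Ctss was higher by 2.33 ± 0.45 under oxazolone and by 1.86 ± 0.45 under urushiol. For Ctsc the differences were 2.18 ± 0.30 and 1.89 ± 0.30, and for Ctsl 1.78 ± 0.22 and 1.90 ± 0.22, in the order oxazolone, urushiol. Ctsk was lower by 1.30 ± 0.24 under oxazolone, and its urushiol difference of -0.75 ± 0.24 was not called. Of 16 serpin cofactors and receptors, 4 were higher and 1 lower under oxazolone, and 6 higher and 0 lower under urushiol. Plaur, the urokinase receptor, was higher by 3.10 ± 0.20 under oxazolone and by 2.54 ± 0.20 under urushiol. Procr, the receptor of protein C, was higher by 1.69 ± 0.25 under oxazolone and by 1.20 ± 0.25 under urushiol, and the heparan sulphate carrier Sdc1 by 1.36 ± 0.20 under oxazolone and by 1.59 ± 0.20 under urushiol. Thbd, of the same list, read 10.25, 10.15 and 9.77 on the urushiol arrays, and 8.25, 8.43 and 7.76 on the control arrays. Its oxazolone difference of 0.94 ± 0.28 was not called. Of 26 measured serine protease inhibitors outside the family, 5 were higher and 1 lower under oxazolone, and 6 higher and 1 lower under urushiol. Wfdc12 was higher by 3.92 ± 0.35 under oxazolone and by 3.44 ± 0.35 under urushiol, Spink12 by 2.82 ± 0.49 under oxazolone and by 2.91 ± 0.49 under urushiol, and Tfpi2 by 2.75 ± 0.26 under oxazolone and by 2.20 ± 0.26 under urushiol. No gene of these 4 lists was called between urushiol and oxazolone in limma's test, and 14 of the 86 had an unadjusted p below 0.05, against 5.88% of all genes.

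Urushiol and oxazolone skin were compared directly to ask whether the allergens differ in their serpins. No member was called, against 0.0166% of all genes (0.00664% higher and 0.00995% lower), and 7 of the 60 members had an unadjusted p below 0.05, against 5.88% of all genes. The arrays of the 2 groups did not overlap for 1 member that was higher in urushiol skin, Serpinb11, and 4 that were lower, Serpina3f, Serpina3i, Serpinb9 and Serpinb13, against 5.35% and 4.39% of all genes (9.74% either way). Serpinb11 had the lowest p, with urushiol minus oxazolone at 1.27 (95% interval 0.54 to 2.01, adjusted p = 0.412). For Serpina3f the difference was -1.87 (-3.01 to -0.74, adjusted p = 0.442), and for Serpinb9 -0.86 (-1.41 to -0.31, adjusted p = 0.494). Serpina3b, the gene that fell most against control, differed by -1.80 (-3.27 to -0.32, adjusted p = 0.715), and 1 urushiol array lay within the range of the oxazolone arrays. Serpinb10 differed by 1.42 (0.17 to 2.67, adjusted p = 0.778), Serpina3i by -0.34 (-0.59 to -0.08, adjusted p = 0.631) and Serpina10 by -0.17 (-0.34 to 0.00, adjusted p = 0.849). Without oxazolone array 2 the lower Serpinb9 value in urushiol skin was called (adjusted p = 0.029). For Serpinb3a the interval of the difference, -0.75 to 3.13, was too wide to show whether the allergens act alike.

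**Figure D4:**
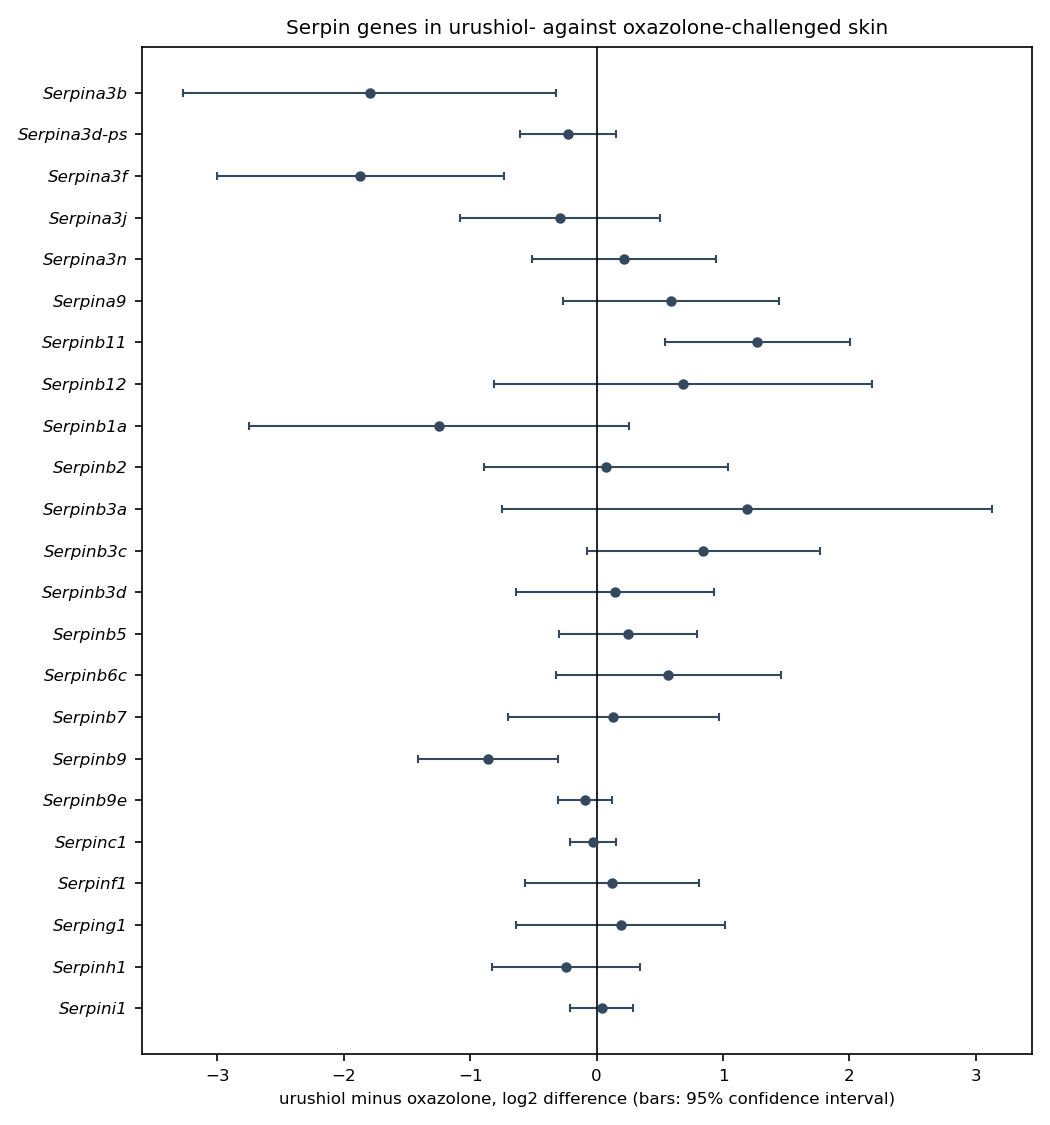
Urushiol minus oxazolone log2 difference (x axis, bars: 95% confidence interval, 3 arrays a group) of 23 serpin genes (y axis). The intervals of Serpina3b, Serpina3f, Serpinb9 and Serpinb11 leave out 0 before adjustment, and none of the 23 has an adjusted p below 0.05.

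Other marker lists moved with the groups as well. Beside the counts below, 9.63% of all genes were higher and 6.92% lower for oxazolone, and 9.96% higher and 6.43% lower for urushiol. The 7 measured stressed keratinocyte markers were all higher under each allergen, with list means of 13.71 to 14.99 on the oxazolone arrays, 14.74 to 15.69 on the urushiol arrays and 7.09 to 8.68 on the control arrays. The keratinocyte list, which checks the labelled tissue, had means between 14.59 and 15.69 on all 9 arrays, while 3 of its 13 genes were higher and 3 lower under oxazolone, and 6 higher and 3 lower under urushiol. The neutrophil list had 7 of 12 genes higher under each allergen, with means of 8.36 to 8.65 on the oxazolone arrays, 8.33 to 8.99 on the urushiol arrays and 5.77 to 6.05 on the control arrays. Under oxazolone its largest differences were 8.81 in S100a8 and 8.23 in S100a9, while Ly6g, Mpo, Ltf, Camp and Ngp were not called. All 10 skeletal muscle markers were lower under each allergen, with means of 7.01 to 9.24 on the oxazolone arrays, 11.34 to 12.34 on the urushiol arrays and 15.99 to 18.06 on the control arrays. Of the 7 measured adipocyte markers 6 were lower under oxazolone and 5 under urushiol, with means of 9.22 to 9.49 on the oxazolone arrays, 9.56 to 10.10 on the urushiol arrays and 10.94 to 11.72 on the control arrays. The part of these cells in the serpin differences, those of Serpinf1 and Serpina12 included, was not tested.

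Control array 3 stood apart: its correlation with control arrays 1 and 2 was 0.979 and 0.978, against 0.995 between those 2. Its hair follicle list mean was 10.99, against 6.06 and 6.14 on control arrays 1 and 2, while the oxazolone arrays had 10.48, 13.04 and 11.38 and the urushiol arrays 9.93, 10.61 and 10.24. Serpinb6d was higher beside these markers on that array, reading 9.16, 11.55 and 11.12 on the oxazolone arrays, 8.34, 7.20 and 9.62 on the urushiol arrays, and 8.07, 8.09 and 11.15 on the control arrays. Its groups overlapped, and it was not called, at 1.51 ± 1.08 for oxazolone (adjusted p = 0.367) and -0.72 ± 1.08 for urushiol (adjusted p = 0.711). Control array 3 also differed from control arrays 1 and 2 in the means of skeletal muscle markers (15.99, against 18.06 and 17.96), melanocyte markers (8.85, against 5.78 and 5.71) and endothelial markers (7.85, against 8.65 and 8.71). The part of any of these cells in Serpinb6d, Serpinb6a, Serpinb6e and Serpinc1 was not tested. Without control array 3, 11 members were higher and 8 lower under oxazolone, and 11 higher and 8 lower under urushiol. Calls outside the family changed too: without that array 17 of 18 hair follicle markers were higher under oxazolone and 13 under urushiol, against 1 each with all arrays. The share of all genes called in that fit is not given here, so the member counts cannot be judged against it.

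**Figure D5:**
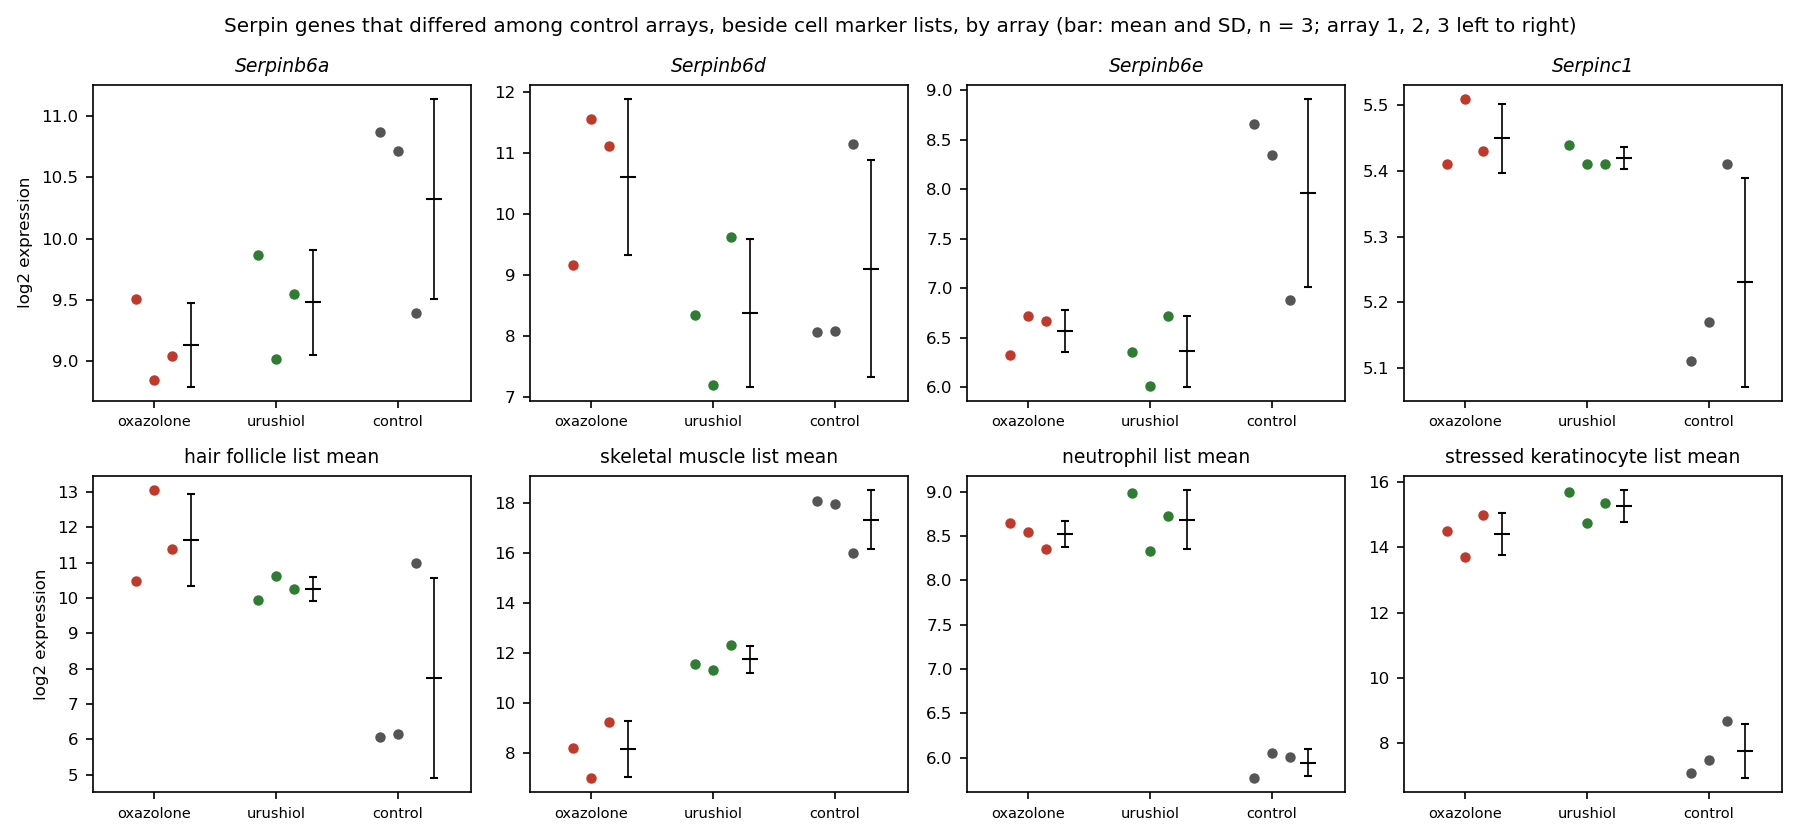
Log2 expression (y axes, which differ and do not start at 0) of Serpinb6a, Serpinb6d, Serpinb6e and Serpinc1, with the means of 4 marker lists, by array 1, 2 and 3 from left to right in oxazolone, urushiol and control skin (x axis); bars are the mean and SD of 3 arrays. On control array 3 Serpinb6e reads 6.88, against 8.66 and 8.35 on the other 2, and the hair follicle mean is 10.99, against 6.06 and 6.14.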

How the data were processed

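Total RNA of neck skin was hybridised to 9 Affymetrix arrays, and groups and replicate numbers were read from the titles. The authors deposited the data as log2 expression, with 1 value for each cluster on each array; per the submitters' processing notes, Affymetrix Expression Console 1.4, RMA and the Transcriptome Analysis Console were used, with no role or order given. The deposited log2 values were not rescaled here. Of 72688 features, 6732 array controls were left out, and 30604 of 65956 clusters had 1 symbol in the platform annotation, 2146 several and 33206 none. For 827 clusters the symbol was replaced by the one RefSeq gives to the same gene ID. RefSeq on GRCm38.p6 also gave gene order and promoter windows, and the array's own build is not stated in the labels. The cluster with the highest mean over 9 arrays stood for each of 30142 genes. Precision is limited by the number of arrays, since they carry no depth; the median SE was 0.113. No detection calls were used.

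The 3 comparisons came from a single limma 3.58.1 model (R 4.3.3, moderated two-sided tests, tested on simulated data) that held all 9 arrays, and p was adjusted by Benjamini-Hochberg over all genes. Alternatives changed the dim-gene filter, the cluster choice, the scaling, the variance model, array weights, the groups in the fit, the replicate block, the threshold, treat at 0.5 and each array in turn. Members, gene lists and tests were chosen with earlier results of these data known. Named were members called with groups that did not overlap, well-known members listed by name, and the 2 to 4 called genes of each list with the largest difference. Plau, Gzma, Tmprss11a, Elane, Ctsg, Serpinb1b, Serpinb1c, Serpinb1-ps1, Serpinb6a, Serpinb6d, Serpinb6e, Serpinb8, Serpinb10, Serpinb13, Serpina1e, Serpina3i, Serpina10, Serpina12 and the named neutrophil markers were chosen after their values were seen. Deviations from the group means correlated between oxazolone and urushiol arrays of 1 number at 0.201, 0.197 and 0.124. Each of these 6 arrays correlated best with its own number in the other challenged group. Of 6 same-numbered pairs with a control array 4 were below 0.1, but oxazolone and control array 1 reached 0.337. Oxazolone array 2 and control array 3, of unlike number, reached 0.285, so these values do not settle a pairing. The main model paired no arrays, and the replicate block was run as an alternative.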

Additional observations from a re-analysis of the deposited data

How the results depend on the processing

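No named serpin reversed a called direction under the alternatives run, and of the values of named members over the alternatives 391 stayed on their side of the threshold for oxazolone against control, while 105 lost and 7 gained a call. For urushiol against control 453 stayed, 40 lost and 10 gained a call, and for urushiol against oxazolone 502 stayed and 1 gained it. For oxazolone against control, 14 members higher and 5 lower became 9 and 3 in a fit of the 2 groups alone, 4 and 3 at an adjusted p of 0.01, and 6 and 3 with treat at a log2 difference of 0.5, and array weights gave 8 lower. For urushiol against control, 10 higher and 5 lower became 3 lower with treat. Leaving out 1 array at a time gave 5 to 12 higher (5 without control array 2, 6 without control array 1, 8 without oxazolone array 1 and 9 without oxazolone array 3) and 3 to 8 lower (3 without oxazolone array 3, 8 without control array 3) for oxazolone, and 8 to 11 higher and 4 to 8 lower (8 without control array 3) for urushiol. Between the allergens it gave 0 to 1 lower, the 1 being Serpinb9 without oxazolone array 2. With the replicate number as a block, pairing the arrays, 10 were higher and 4 lower for oxazolone, 12 higher and 4 lower for urushiol, and 0 between the allergens. The block in a fit of the 2 groups alone, added after seeing the data, gave 6 higher and 2 lower for oxazolone, 0 and 0 for urushiol, and 0 between the allergens. Shares of all genes called in these alternative fits are not given beside these counts. Fewer arrays leave fewer degrees of freedom for the spread, and the cause of other changes was not tested. Arrays give no depth, and the 23 members below the array median throughout have little room to show a fall.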

Other observations

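Many dim values were repeated. Of the 60 serpins, 13 (21.7%) had 1 identical value on at least 5 of the 9 arrays, against 19.59% of all genes, and the highest mean among those 13 was 5.66. Second clusters of Serpinh1 and Serpina1c, and a cluster annotated to both Serpina1a and Serpina1d, were not called: their adjusted p, over all clusters, was 0.0977 to 0.428 for oxazolone against control and 0.201 to 0.346 for urushiol against control.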
